A study of Mus musculus with 574 samples.

Results

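Transforming growth factor beta (TGF-beta) signalling was followed in single GMPs, the granulocyte/macrophage progenitors of mouse marrow, through 8 genes. They are the ligand gene Tgfb1, the receptor genes Tgfbr1 and Tgfbr2, the signal carriers Smad2, Smad3 and Smad4, and the inhibitors Smad7 and Skil. The genes were chosen by name for their place in the pathway, with earlier results of these data known. All 8 have a row among the 46078 gene rows of the 6 count tables. C57Bl/6 mice aged 6 to 12 weeks received 1 dose of 150 mg/kg 5-fluorouracil (5-FU), a drug that kills dividing cells, or phosphate-buffered saline. Every cell is labelled 5-FU, day 0 included, so whether the day 0 mice had any injection is not known. GMPs, sorted for c-Kit, CD34 and Fc gamma receptor and against Sca-1 and lineage markers, were sequenced singly with Smart-seq2, a full-length method. The labels name 6 sets: 1 each on days 0, 10, 12 and 14, and 2 on day 8.

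TGF-beta is made as a latent dimer that must be released before it can bind. The released ligand brings the type II receptor (Tgfbr2) together with the type I receptor (Tgfbr1), which phosphorylates Smad2 and Smad3. These join Smad4 and enter the nucleus. Smad7 holds the response back at the receptors, and the Ski family member Skil does so at the Smads in the nucleus. In bone marrow the pathway is best known for restraining the division of blood stem cells.

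Of 573 cells with a column, the 500 that reached 50000 gene reads and 1000 detected genes were kept. Day 0 gave 92 of them, the day 8 sets 90 and 93, day 10 gave 93, day 12 gave 85 and day 14 gave 47. Their reads in genes summed to 4849678 on day 14 and to between 16457271 and 30691997 in the other sets, so day 14 is the least precise. Reads of the sort genes were present in every set. Cd34 stood at 353 to 582 CPM (reads relative to the library total after TMM scaling) and Kit at 51.9 to 101 CPM, while Ly6a, which encodes Sca-1, stood at 3.83 to 12.95 CPM. Fcgr3, an Fc gamma receptor gene of the sort, fell on day 8, from 295 CPM to 105 and 117 CPM. The primary granule list, led by Mpo, summed to 31810 to 87910 CPM. In the T and NK cell list, Cd3e, Cd3d and Trbc2 were at or below 0.251 CPM in every set, while Nkg7 stood at 625 to 1309 CPM and made up nearly the whole sum of the list, 625 to 1310 CPM. The marker lists also moved with day. On day 8 against day 0, 8 of 13 tested monocyte genes and 5 of 11 granule genes fell. In the same comparison 8 of 16 stem and progenitor genes and 4 of 4 erythroid genes rose. Over all tested genes, 2.61% were called higher and 3.02% lower. Other lists moved too: 3 of 5 mast cell and basophil genes rose. Of 4 eosinophil genes, Prg2 and Prg3 fell, as they also did on days 10, 12 and 14 against day 0. Malat1 and Neat1, nuclear RNAs used as a sign of RNA quality, both fell on day 8 and on day 10 against day 0. On day 14 against day 8, 10 monocyte and 5 granule genes rose, and 5 stem and 3 erythroid genes fell. Over all tested genes, 7.58% were called higher and 6.56% lower. The part of these shifts in any day difference below was not tested. Xist, an RNA of female cells, had a read in 89.1% of day 0 cells and 84.7% of day 12 cells, and in 0 to 5.38% of cells of the other sets. Days 8, 10 and 14 therefore cannot be told apart from sex when set against day 0, nor can day 12 when set against day 8. In every comparison, day and the plate or the way bones were processed cannot be told apart where these differ. Reads were summed over cells, so fewer cells using a gene and less RNA per cell cannot be told apart in a summed level.

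Among the receptor genes, Tgfbr1 lies at chr4:47353222-47414931 on the plus strand and Tgfbr2 at chr9:116084293-116175360 on the minus strand (mm10). The other members lie on chromosomes 7 (Tgfb1), 9 (Smad3), 3 (Skil) and 18 (Smad2, Smad4 and Smad7). The upstream sequences of the receptor genes are shown because signalling needs both genes. Each is the 250 bases before a start site in RefSeq (GRCm38.p6), for Tgfbr1 the one at the annotated gene start, at chr4:47352972-47353221 and chr9:116175364-116175613. Capitals mark CAGAC, the core of the Smad binding element, searched on both strands as CAGAC or GTCTG.
Tgfbr1: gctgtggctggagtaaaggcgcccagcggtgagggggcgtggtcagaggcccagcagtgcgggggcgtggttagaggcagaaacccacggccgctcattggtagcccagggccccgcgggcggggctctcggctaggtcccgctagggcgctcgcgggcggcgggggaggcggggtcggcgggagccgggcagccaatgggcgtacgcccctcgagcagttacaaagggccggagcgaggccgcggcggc
Tgfbr2: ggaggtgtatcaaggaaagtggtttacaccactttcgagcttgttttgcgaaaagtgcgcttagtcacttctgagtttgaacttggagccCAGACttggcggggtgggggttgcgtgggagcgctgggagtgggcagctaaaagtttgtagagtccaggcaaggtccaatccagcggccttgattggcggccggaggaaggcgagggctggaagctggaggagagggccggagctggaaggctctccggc
The Tgfbr2 sequence holds 1 match and the Tgfbr1 sequence shown holds 0, while a second Tgfbr1 start listed in RefSeq, with chr4:47385966-47386215 before it, has 1 match and is not printed. Of 32817 mouse promoters of this length, 42.2% hold at least 1. GC content was 74.8% and 58.4% in the sequences shown and 52.8% before the second Tgfbr1 start. A match is a run of letters and not a measured binding site. RefSeq promoters were matched for 4 of the 8 genes.

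GMPs carried reads of every part of the pathway, from ligand to inhibitor, at modest levels. Per kilobase of exon, Smad2 was highest at a mean level of 5.79 CPM per kb over the 6 sets (range 4.91 to 7.33). Smad4, the shared partner, followed at 4.19 CPM per kb (3.45 to 5.09), and its range overlapped that of Smad2. Tgfbr1 at 2.58 (1.77 to 3.01) and Smad3 at 2.54 CPM per kb (2.14 to 3.37) could not be ordered, and both ranges lay below that of Smad4. Tgfb1 at 1.37 (0.911 to 1.88), Tgfbr2 at 1.25 (0.582 to 1.89) and Smad7 at 1.08 CPM per kb (0.809 to 1.43) overlapped one another. Skil was lowest at 0.472 CPM per kb (0.148 to 0.717), below every set of Smad7 and overlapping Tgfbr2. The median tested gene stood at 3.24 CPM per kb, so Smad2 and Smad4 lay above it and the other 6 genes below it.

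**Figure D1:**
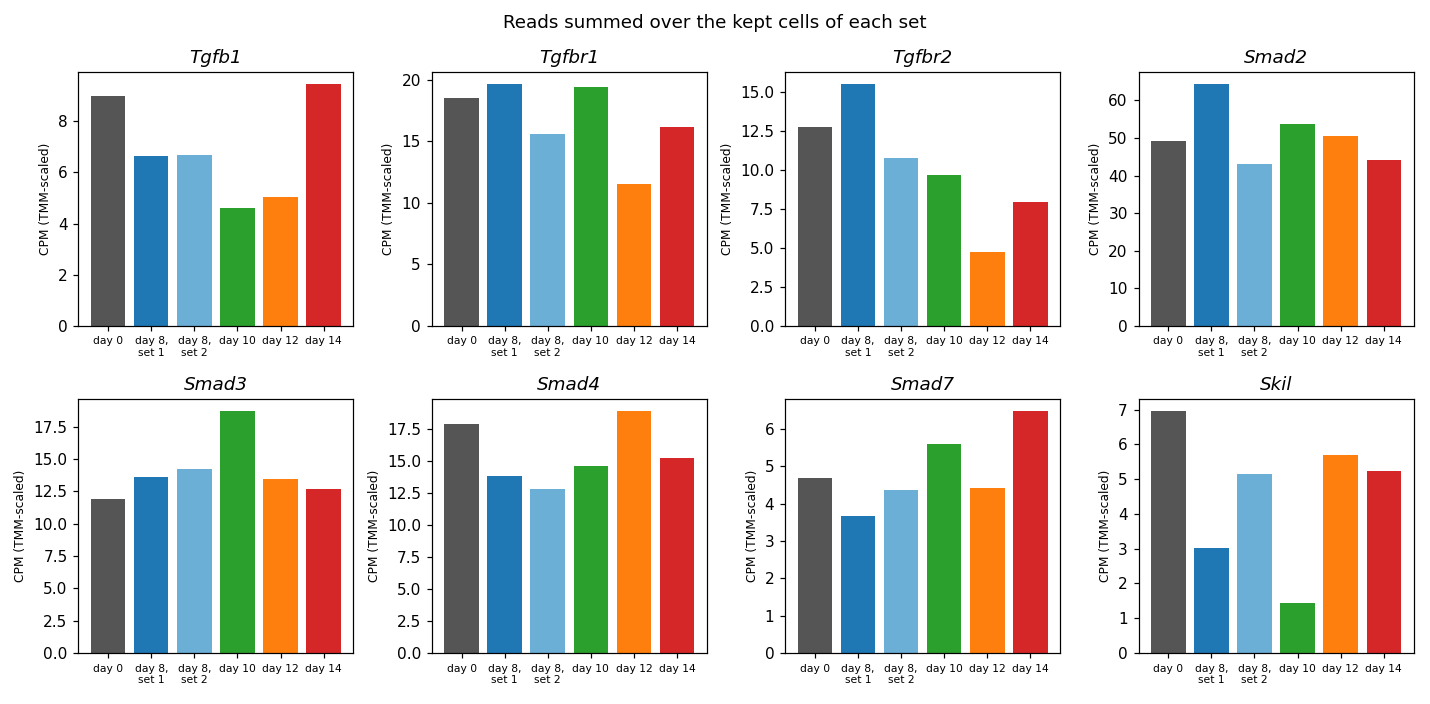
Level of each gene in each of the 6 sets, in CPM of the reads summed over kept cells (TMM-scaled; each panel has its own axis from 0). Each bar is 1 set, so bars carry no error; the 2 day 8 bars show the spread between replicate sets.

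The ligand gene Tgfb1 began at 8.99 CPM (day 0), read 6.64 and 6.66 CPM in sets 1 and 2 of day 8, then 4.59 (day 10), 5.05 (day 12) and 9.46 CPM (day 14). Days 0 and 14 were the highest and day 10 the lowest. The receptor gene Tgfbr1 began at 18.5 CPM (day 0), read 19.7 and 15.6 CPM in sets 1 and 2 of day 8, then 19.5 (day 10), 11.6 (day 12) and 16.2 CPM (day 14). Only day 12 lay outside the span of the day 8 and day 0 values. Tgfbr2, the receptor that binds ligand first, began at 12.8 CPM (day 0), read 15.5 and 10.8 CPM in sets 1 and 2 of day 8, then 9.65 (day 10), 4.76 (day 12) and 7.97 CPM (day 14). Its sets on days 10, 12 and 14 were all below both day 8 sets and below day 0.

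Smad2 began at 49.1 CPM (day 0), read 64.4 and 43.2 CPM in sets 1 and 2 of day 8, then 53.7 (day 10), 50.4 (day 12) and 44.1 CPM (day 14). Every other day lay between the day 8 sets, which differed 1.49-fold. Smad3 began at 11.9 CPM (day 0), read 13.6 and 14.3 CPM in sets 1 and 2 of day 8, then 18.7 (day 10), 13.4 (day 12) and 12.7 CPM (day 14), with day 10 highest. Smad4 began at 17.9 CPM (day 0), read 13.8 and 12.8 CPM in sets 1 and 2 of day 8, then 14.6 (day 10), 18.9 (day 12) and 15.2 CPM (day 14). Both day 8 sets were below every other day. Of the inhibitors, Smad7, which targets the receptors, began at 4.67 CPM (day 0), read 3.66 and 4.36 CPM in sets 1 and 2 of day 8, then 5.60 (day 10), 4.41 (day 12) and 6.47 CPM (day 14). Skil, which binds the Smads in the nucleus, began at 6.95 CPM (day 0), read 3.02 and 5.15 CPM in sets 1 and 2 of day 8, then 1.44 (day 10), 5.69 (day 12) and 5.23 CPM (day 14). Day 10 was the lowest set of Skil and rested on 40 reads in 21 cells.

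The question of the series is how GMPs change in the days after 5-FU, so days 8, 10, 12 and 14 were set against day 0, and days 10, 12 and 14 also against day 8. None of the 8 genes passed the edgeR quasi-likelihood test at an adjusted p of 0.05 in any of 7 comparisons. This covered 56 tests, of which 4 had an unadjusted p under 0.05. Over all 15145 genes tested, the share called was 5.63% for day 8 against day 0, 1.43% for day 10, 0.172% for day 12 and 1.58% for day 14. Against day 8 it was 0.792% for day 10, 2.50% for day 12 and 14.1% for day 14. The count of 0 of 8 is to be read against these shares. The median log2 fold change of the 8 genes lay between -0.185 and 0.063, and that of all tested genes between -0.0497 and 0.00968.

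The 4 differences with an unadjusted p under 0.05 were lower values of Skil and Tgfbr2, none of which passed the adjusted test. The Skil log2 fold change on day 10 was -2.27 against day 0 (SE 0.80, edgeR adjusted p = 0.181) and -1.50 against day 8 (SE 0.72, edgeR adjusted p = 0.621). The Tgfbr2 log2 fold change on day 12 was -1.42 against day 0 (SE 0.57, edgeR adjusted p = 0.470) and -1.46 against day 8 (SE 0.52, edgeR adjusted p = 0.144). On day 12 Tgfbr2 had 82 reads in 12 cells, and 1 cell held 58.5% of them. These 2 comparisons share the day 12 set, as the 2 of Skil share the day 10 set.

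Missing the threshold does not show that levels were equal. Of the 56 95% intervals, 15 lay wholly within a log2 fold change of 1 in either direction. For Smad2, the most precisely measured, the day 8 interval against day 0 ran from -0.44 to 0.71. For Smad7 it ran from -1.51 to 1.06. Days other than day 8 have 1 set and took their assumed spread from the pair of day 8 sets.

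**Figure D2:**
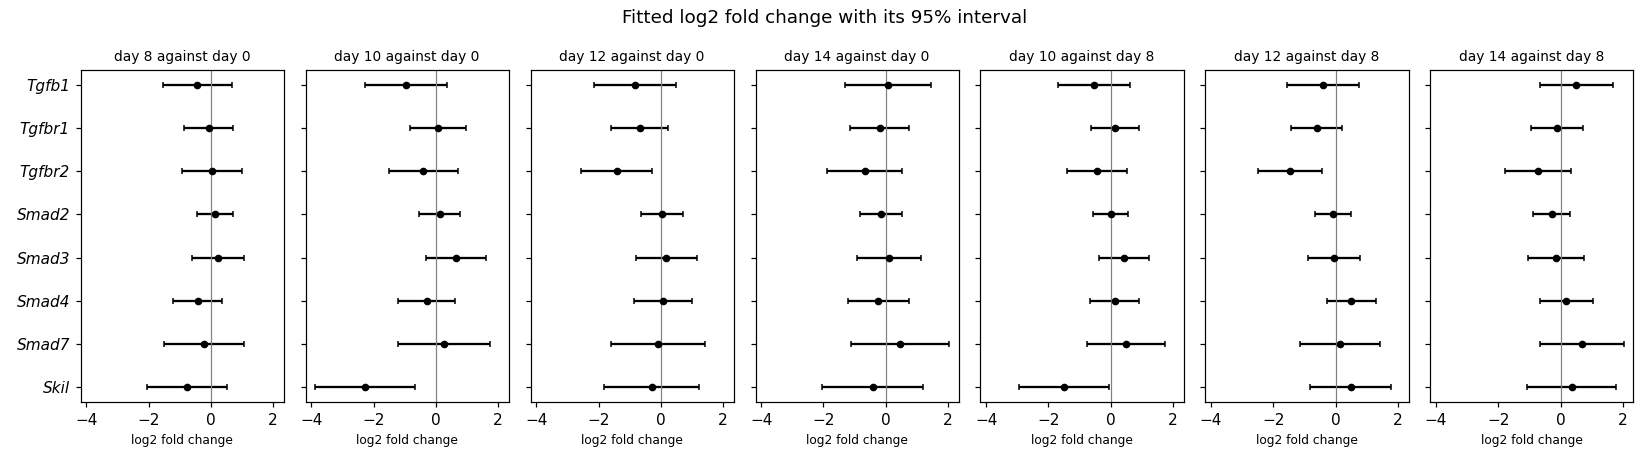
Fitted log2 fold change of the 8 genes in the 7 comparisons (x axis, log2 scale) with 95% intervals as bars. The intervals of Skil on day 10 and Tgfbr2 on day 12 lie below 0 before adjustment for the number of genes tested; neither gene passed after it.

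The shares of cells with a read were compared at one depth. After each kept cell was thinned to 50000 reads, Smad2 had a read in 54.4% of the 500 cells, Tgfbr1 in 29.8%, Smad4 in 24.6% and Smad3 in 115 cells. Smad7 had one in 20.4%, Tgfb1 in 19.6%, Tgfbr2 in 16.6% and Skil in 15.4%. These shares order the genes at this depth only, since a cell without a read may still hold the RNA. Smad2 reached 64.5% of cells on day 10 (60 of 93), 64.4% in the first day 8 set and 38.3% on day 14 (18 of 47). A low day 14 share was not particular to Smad2. Rhoa (80.9%) and Cd34 (72.3%) also had their lowest share on day 14, while Crebbp, at 100%, had its highest. Skil had a read in 18.5% of day 0 cells and 5.38% of day 10 cells, with overlapping exact 95% intervals of 11.1 to 27.9% and 1.77 to 12.1%. Tgfbr2 had a read in 18.5% of day 0 cells and 9.41% of day 12 cells, with overlapping intervals of 11.1 to 27.9% and 4.15 to 17.7%. The intervals cover counting error only.

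**Figure D3:**
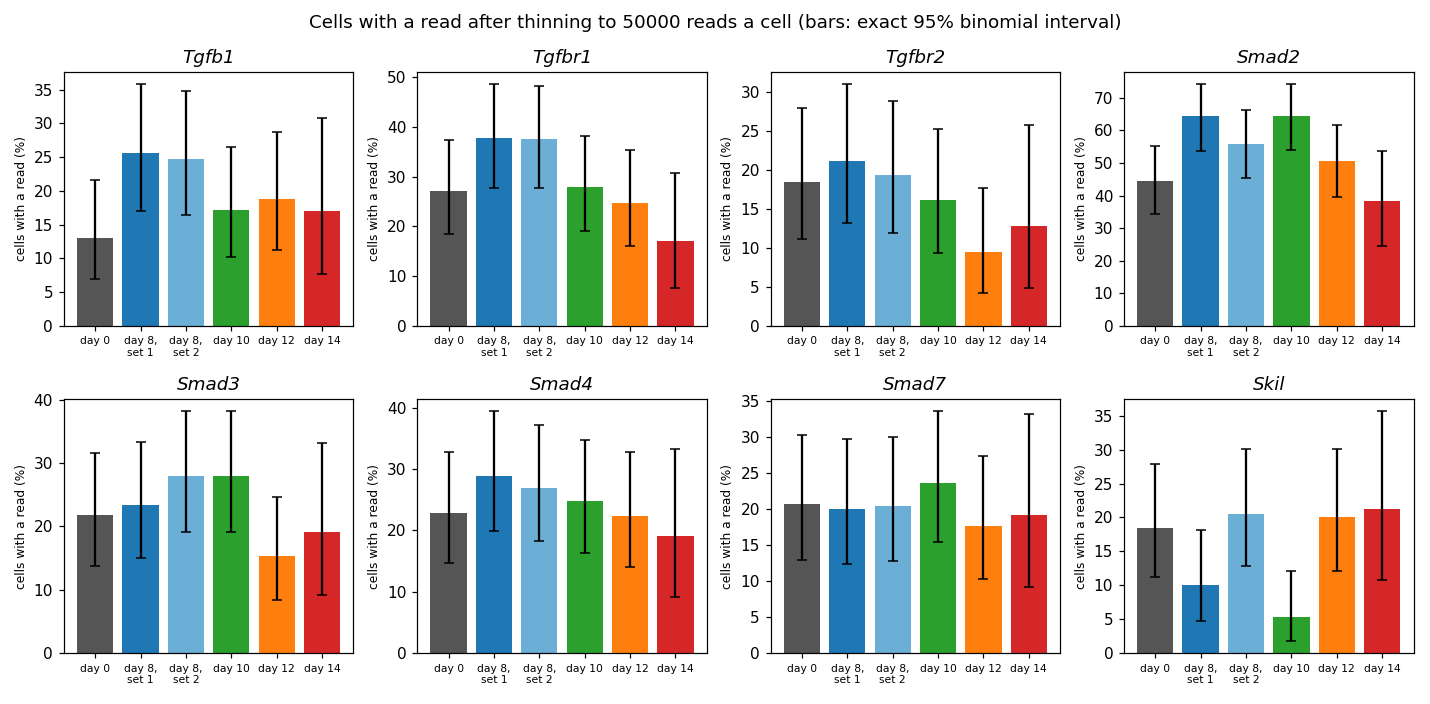
Share of cells with a read of each gene (y axis, percent) in the 6 sets after thinning each cell to 50000 reads; bars show exact 95% binomial intervals, which cover counting error only. Smad2 is in the largest share of cells in every set.

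Reads of the inhibitors were spread thinly, at a median of 1 or 2 reads in a cell that had any. On day 0 the 78 reads of Smad7 lay in 51 cells, of which 70.6% had 1 read, while the 299 reads of Smad4 lay in 25 cells. In the 73 wells that failed the cell filter, Smad7 stood at 12.0 CPM against 4.73 CPM in kept cells, without TMM scaling, a ratio of 2.54. Most of these wells are of day 14, where 47 of 96 passed, against 85 of 95 on day 12 and larger shares elsewhere. Failed wells and day therefore cannot be told apart in these ratios. The ratios of the other 7 genes were 0 for Tgfb1, with 0 reads in those wells, and 0.183 to 1.04 for the rest. Whether such reads are background, and their part in the Smad7 level of kept cells, was not tested. This comparison was added after the data were seen.

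A full receptor pair was seldom read in the same cell. Tgfbr1 and Tgfbr2 both had a read in 27 of 500 thinned cells (5.40%, exact 95% interval 3.59 to 7.76%). The product of their shares over all 500 cells, with the sets pooled, gives 24.7 cells. Both receptors with Smad2 or Smad3 were read in 20 cells, against 16.3 from the pooled product. Smad2 or Smad3 had a read in 65.8% of cells. The median cell had a read of 2 of the 8 genes, and 44 cells had none.

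Cells of each set were also ranked by the summed reads of 4 marker lists and split at the middle. Tgfbr1 averaged 1.26 reads per 50000 in the cells ranked higher for stem and progenitor genes and 0.578 in those ranked lower. The difference was small in the first day 8 set (1.07 against 1.02) and on day 0 (0.891 against 0.674). It was largest on day 12 (1.19 against 0.143) and day 14 (1.57 against 0.130). Day 14 had only 23 cells on each side of the split, with a Tgfbr1 read in 26.1% and 8.70% of them. Before thinning, 5 cells held 84.6% of the day 14 reads of Tgfbr1. Tgfbr2 averaged 0.744 and 0.362, with 1.18 against 0.156 in the first day 8 set and 0.761 against 0.717 in the second. Both were higher in mean reads in 6 of 6 sets, as were 4.94% of all tested genes. By share of cells with a read, both were higher in 5 of 6 sets and lower in 0. For the monocyte list, Tgfbr2 averaged 0.343 reads in the higher-ranked and 0.777 in the lower-ranked cells. Its mean reads were lower in 6 of 6 sets, as were those of 2.26% of all tested genes. By share of cells Tgfbr2 was lower in 5 of 6 sets. On day 0 it was higher, at 21.7% of higher-ranked against 15.2% of lower-ranked cells. The other shares of all tested genes in 6 of 6 sets were 4.92% higher for the monocyte list, 4.68% higher and 3.8% lower for the granule list, 0.879% lower for the stem list, and 8.76% higher and 2.09% lower for the mitosis list. Over the 32 pairs of list and gene, 3 (9.38%) kept a direction in 6 of 6 sets, against 8.08% over all tested genes, which is near the background. Ifitm1 made up 42.6% of the reads of the stem list and Ly6c2 71.6% of the monocyte list, so 1 gene weighs heavily in each ranking. In 5 or 6 of 6 sets, 9 of the 32 pairs (28.1%) kept a direction, against 27.7% over all tested genes, again near the background. The 6 pairs at 5 of 6 sets were Smad4 higher for the mitosis list (1.01 against 0.446 reads), Smad2 higher for the monocyte list, Smad3 higher for the stem list, and, for the granule list, Skil higher and Tgfbr1 and Smad7 lower. The cells ranked higher were the deeper ones before thinning in 6 of 6 sets for the mitosis list and for the granule list. They were so in 5 of 6 sets for the monocyte list and in 2 of 6 for the stem list.

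**Figure D4:**
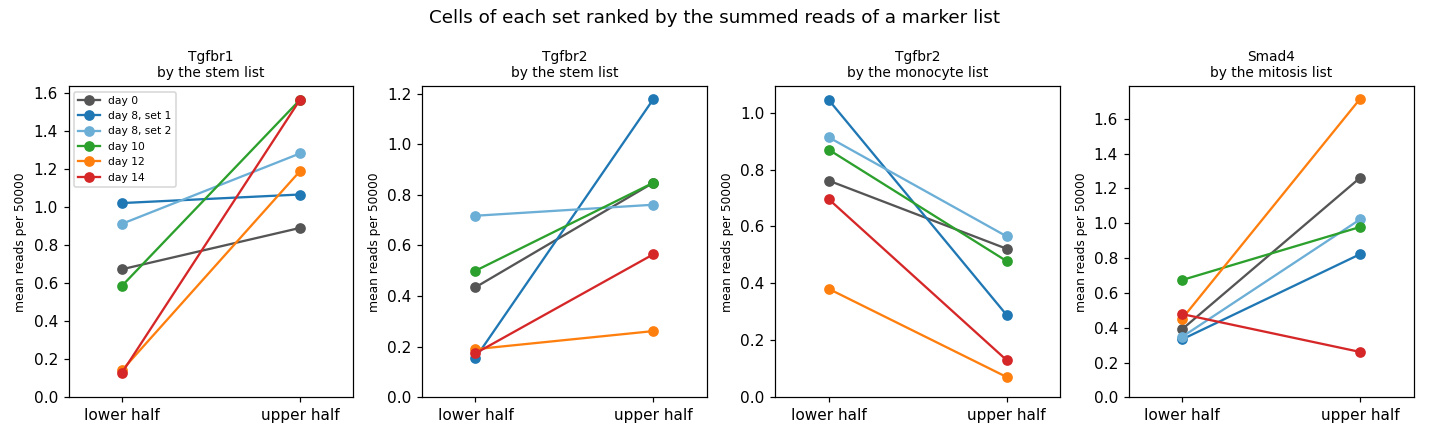
Mean reads per 50000 (y axis) of 4 pairs of gene and list in the cells of each set ranked lower and higher for the list; each line is 1 set. The 4 pairs were chosen after their values were seen: 3 keep a direction in 6 of 6 sets and Smad4 does so in 5 of 6.

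The rest of the pathway showed which other parts GMPs carry. Of 104 genes in lists of pathway parts and known response genes, 73 could be tested. Among genes of ligand storage, the highest levels were those of Nrros, which anchors latent TGF-beta on myeloid cells, at a mean of 60.96 CPM per kb, and of Emilin1, which holds back ligand maturation, at 24.6. The co-receptor gene Eng stood at 9.26 CPM per kb. Fkbp1a, whose protein binds the type I receptor and keeps it inactive, stood at 71.03, and Strap, a receptor-associated protein gene, at 92.4 CPM per kb. The response gene Myc stood at 129 CPM per kb. Of the other ligand genes, 4 of 13 could be tested and the highest, Gdf11, stood at 0.374 CPM per kb.

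Few of these genes changed, and the share of all tested genes called higher and lower stands beside each count. Against day 0, 1 rose and 2 fell at day 8 (2.61% and 3.02% of all genes), 0 rose and 1 fell at day 10 (0.687% and 0.746%). At day 12 1 rose and 0 fell (0.066% and 0.106%), and at day 14 2 rose and 1 fell (0.858% and 0.72%). Against day 8, 0 rose and 1 fell at day 10 (0.482% and 0.31%), 2 rose and 0 fell at day 12 (1.39% and 1.1%), and 7 rose and 4 fell at day 14 (7.58% and 6.56%). The day 14 count is 15.1% of the 73 genes, against 14.1% of all genes tested. The response gene Itgb7, an integrin subunit, rose on day 8 (log2 fold change 1.34, SE 0.37, edgeR adjusted p = 0.0190), a call lost with DESeq2 and with limma voom. It began at 9.35 CPM (day 0), read 22.2 and 25.3 CPM in sets 1 and 2 of day 8, then 13.1 (day 10), 31.95 (day 12) and 50.8 CPM (day 14). Its reads on day 14 came from few cells: 10.6% of thinned cells carried one, against 31.1% and 31.2% in the day 8 sets. Ahnak, a large scaffold protein gene of the response list, fell on day 8 (log2 fold change -1.61, SE 0.34, edgeR adjusted p = 0.00151), from 41.5 CPM to 10.1 and 17.2 CPM. It also fell on day 10 against day 0 (log2 fold change -1.55, SE 0.41, edgeR adjusted p = 0.0356). That call was lost in 8 of 10 alternatives. They were DESeq2 size factors, the DESeq2 test, limma voom, no gene filter, leaving out the day 14 set, and the fits on thinned cells. In wells that failed the cell filter, Ahnak stood 4.12 times as high in unscaled CPM as in all kept cells. The median of gene reads per spike-in read was 40.9 on day 0, and 78.9 and 71.8 in sets 1 and 2 of day 8. This median was also higher on day 10 than on day 0. The part of background reads in the falls of Ahnak was not tested. Thbs1 was the other gene to fall on day 8, from a low 1.32 CPM to 0.0914 and 0.252 CPM. Its call was lost with DESeq2 and with limma voom. The call was also lost in cells with at least 100000 reads and 2000 genes, and with the day 0 and day 8 sets only. Cdkn1a, which encodes the cell cycle inhibitor p21, fell on day 10 against day 8 (log2 fold change -1.83, SE 0.40, edgeR adjusted p = 0.00857), from 30.8 and 30.4 CPM to 8.58 CPM.

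Other called genes included Ski, the close relative of Skil, which rose on day 12 against day 8 (log2 fold change 1.89, SE 0.49, edgeR adjusted p = 0.0194), a call lost with DESeq2. Its level was 4.60 and 5.08 CPM on day 8 and 17.9 CPM on day 12. Thbs1, an activator of latent TGF-beta, rose in the same comparison, from 0.0914 and 0.252 to 11.9 CPM. Id2 fell on day 14 against day 8 (log2 fold change -2.68), but without the first day 8 set its value was -0.03, and the call was lost with DESeq2 and with limma voom. The early response gene Klf10 fell on day 14 against day 8 (log2 fold change -2.18, SE 0.50, edgeR adjusted p = 0.00166), from 22.2 and 20.8 to 4.73 CPM, a call lost with limma voom. Crebbp, a co-activator of the Smads, and Tgfbr3, the co-receptor betaglycan, rose on day 14 against day 8 by log2 fold changes of 2.28 and 2.02. On day 14 Crebbp had a read in 100% and Tgfbr3 in 95.7% of thinned cells. Most wells that failed the cell filter are of day 14. In them, Crebbp stood 4.84 times and Tgfbr3 5.57 times as high in unscaled CPM as in all kept cells. The gap to the kept cells of day 14 was smaller. Crebbp stood at 246 CPM (unscaled) in failed wells and 196 CPM (TMM-scaled) in day 14 kept cells, and Tgfbr3 at 74.9 and 44.1 CPM. The TMM factor of day 14 was 0.828, so scaling raised these kept-cell levels and makes the gap look narrower than on an unscaled basis. Ltbp1 and Ahnak, which also rose on day 14 against day 8, stood 4.34 and 4.12 times as high in failed wells as in all kept cells. In cells with at least 100000 reads and 2000 genes the Ltbp1 call was lost, and its log2 fold change was 0.74 against 1.70 in all kept cells. Whether these reads are background, and their part in the levels of any day, was not tested.

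Genes with a pattern most like a member were named by the root mean square difference of centred log2(CPM + 1) over the 6 sets, among 12283 genes. The nearest to Tgfbr2 was Pex11a at 0.124, and to Skil H2-Q5 at 0.142. For Skil only 36 genes lay within 0.3, and for Smad2 4579 did. On this scale Smad2 itself had a standard deviation of 0.207 over the 6 sets, and Skil 0.628. A gene that hardly moved therefore lay within 0.3 of Smad2, and the 4579 do not show a shared pattern.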

How the data were processed

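Reads of single GMPs in 6 sets were analysed. The authors deposited raw read counts for each gene in each cell, from GSNAP and HTSeq 0.5.3p3 on mm10, per the submitters' processing notes. The counting mode, strand setting and annotation are not given in the sources used here. The method marks no strand, and PCR copies are counted because it uses no molecular identifiers. The 5 rows that name no gene took a median of 91.1% of a cell's reads and were left out, as were 92 spike-in rows, and 1 column was not used. Symbols and exon lengths came from GENCODE vM21.

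Cells are not replicates, so reads of kept cells were summed per set. Genes passing filterByExpr and detected in 10% or more of the kept cells in some set were tested, 15145 in all, with edgeR 4.0.16 (TMM, a mean per day, quasi-likelihood F test, Benjamini-Hochberg adjustment, threshold 0.05). The fit had 1 residual and 50.9 prior degrees of freedom. Whether separate mice gave the 2 day 8 sets is not labelled, so the p-values reflect only their spread, which may be technical. Named genes beyond the 8 were the called list genes, at most 4 per list and comparison, the 2 highest per list and the nearest patterns; not all are described. The method was tested on counts simulated from the means and spread of the fit itself. That test cannot check whether the other days vary like the day 8 sets. The members and lists were chosen with earlier results of these data known. Alternatives were DESeq2 1.42.0, limma 3.58.1 voom, no gene or cell filter, stricter cells, thinned cells and sets left out.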

Additional observations from a re-analysis of the deposited data

How the results depend on the processing

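No member passed the test under any alternative but 1. In cells with at least 100000 reads and 2000 genes, 1 member was called on day 14 against day 8: Tgfbr1, with a log2 fold change of -1.50 (edgeR adjusted p = 0.0400) where it was -0.13. Only 15 day 14 cells pass that filter, and the cause was not tested. With edgeR on thinned cells, 0 of 13214 genes were called in all 7 comparisons, including the one where 14.1% were called without thinning; its prior degrees of freedom were 1.90 against 50.9. Its 0 calls among the members therefore say nothing of stability, and every call of a pathway gene was lost in it. After this was seen, limma voom and DESeq2 were added on the thinned cells. Voom called 0 genes too, while DESeq2 called up to 2.14% of genes, with 0 members. The 48 values below changed sign; none was past the threshold in the main result, the largest of which was 0.69 in size, and for these the cause was not tested. In cells with at least 100000 reads and 2000 genes, these log2 fold changes took the other sign: Tgfbr1 at -0.12 (day 10 against day 0), Tgfb1 at -0.80 and Smad2 at 0.18 and Smad3 at -0.19 and Smad4 at 0.40 and Smad7 at -1.03 (day 14 against day 0), Smad2 at 0.0104 (day 10 against day 8), Tgfb1 at -0.31 and Smad2 at 0.0185 and Smad7 at -0.90 (day 14 against day 8). In thinned cells these did: Tgfbr1 at 0.35 (day 8 against day 0), Smad3 at -0.82 and Smad7 at 0.000696 and Skil at 0.27 (day 12 against day 0), Tgfbr1 at 0.50 and Smad3 at -0.35 (day 14 against day 0), Smad2 at 0.0312 (day 10 against day 8), Tgfb1 at 0.0324 and Smad2 at 0.0413 (day 12 against day 8), Tgfbr1 at 0.16 and Smad4 at -0.27 (day 14 against day 8). With limma voom on thinned cells these did: Tgfbr1 at 0.34 (day 8 against day 0), Smad3 at -0.81 and Smad7 at 0.00425 and Skil at 0.27 (day 12 against day 0), Tgfbr1 at 0.51 and Smad3 at -0.32 (day 14 against day 0), Smad2 at 0.0458 (day 10 against day 8), Tgfb1 at 0.043 and Smad2 at 0.0563 (day 12 against day 8), Tgfbr1 at 0.17 and Smad4 at -0.23 (day 14 against day 8). With DESeq2 on thinned cells these did: Tgfbr1 at 0.36 (day 8 against day 0), Tgfbr2 at 0.00813 (day 10 against day 0), Smad3 at -0.82 and Smad7 at 0.00345 and Skil at 0.27 (day 12 against day 0), Tgfbr1 at 0.55 and Smad3 at -0.30 (day 14 against day 0), Smad2 at 0.029 (day 10 against day 8), Tgfb1 at 0.0239 and Smad2 at 0.0328 (day 12 against day 8), Tgfbr1 at 0.19 and Smad4 at -0.24 (day 14 against day 8). Without the gene filter these did: Tgfbr1 at 0.00395 (day 8 against day 0), Smad2 at 0.0135 (day 10 against day 8). Without the cell filter (day 14) and with limma voom (day 10) these did: Tgfb1 at -0.11 (day 14 against day 0), Smad2 at 0.0222 (day 10 against day 8). Without either day 8 set no residual degree of freedom is left, so only values were had: Tgfbr2 on day 12 against day 8 lay at -1.19 and -1.70, and Skil on day 10 against day 8 at -1.86 and -1.07. Uncalled values that took the other sign without the first day 8 set were Tgfbr2 at -0.23 and Smad2 at -0.17 (day 8 against day 0), Smad2 at 0.30 and 0.21 (days 10 and 12 against day 8), and Tgfbr1 at 0.0146 and Skil at -0.0138 (day 14 against day 8). Without the second set, Tgfbr1 did at 0.0863 (day 8 against day 0) and -0.0155 (day 10 against day 8). No paired analysis was possible because only day 8 has more than 1 set. Depth limits day 14 most.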
